A study of Mus musculus with 15 samples.

Results

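The 10 genes described here make or break down prostaglandins and leukotrienes, the signalling lipids cut from membrane arachidonic acid. They were taken by name from the count table of a mouse macrophage RNA-seq study, and all 10 were found among its 25700 gene identifiers. They are Pla2g4a, Ptgs1, Ptgs2, Ptges, Hpgds, Tbxas1, Alox5, Alox5ap, Ltc4s and Hpgd. All 10 also passed the filter on low counts, which kept 11883 genes. The study compared bone marrow derived macrophages (BMDMs) in 5 groups of 3 libraries. Marrow from mice aged 8 to 10 weeks had been grown for 7 days with M-CSF at 10 ng/ml in every group, controls included. The cells then received 400 µM heme-albumin, 200 µM heme-albumin, 10 ng/ml IL-4 or 10 ng/ml IFN-γ, or were left untreated as controls. Heme-albumin is hemin (oxidised heme) loaded onto human serum albumin, and cells given it were called erythrophagocyte-like by the study. The IL-4 and IFN-γ cells were its M2 and M1 macrophages. The sources used here give no strain, sex, number of mice or time under treatment, and cells given albumin without heme were not analysed here. Because the labels do not say whether each replicate was its own mouse, the tests measure only how far these libraries differ, which may be technical.

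Arachidonic acid is freed from membrane lipids by cytosolic phospholipase A2 (Pla2g4a). Cyclooxygenases (Ptgs1, mostly constitutive, and Ptgs2, inducible) turn it into prostaglandin H2, from which terminal synthases make prostaglandin E2 (Ptges), prostaglandin D2 (Hpgds) or thromboxane A2 (Tbxas1). On the other branch 5-lipoxygenase (Alox5), helped by its activating protein FLAP (Alox5ap), makes leukotriene A4, which Ltc4s joins to glutathione to give leukotriene C4. Hpgd encodes the enzyme that inactivates prostaglandins. Macrophages are a classical source of both kinds of lipid, and none of the lipids was measured in the files used here.

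Library totals ran from 8427352 to 28587416 counts. Levels are given as CPM (a gene's counts relative to its library total), and as CPM per kilobase of exon (RPKM) where genes are compared with each other. All 8 macrophage markers were detected in every group, and they summed to 41740 to 49970 CPM at 400 µM, 45300 to 53020 CPM at 200 µM, 14590 to 20470 CPM with IL-4, 13060 to 23440 CPM with IFN-γ and 36750 to 41400 CPM in controls, mostly as Lyz2. Lyz2 averaged 11550 CPM with IL-4, 9905 with IFN-γ and 31730 in controls. With IFN-γ, Fcgr1, Mertk and Aif1 averaged 706, 240 and 302 CPM against 154.5, 62.8 and 48.6 CPM in controls. Csf1r had 1430, 1425 and 2807 CPM in the IFN-γ libraries against a control mean of 1692 CPM. Adgre1, Cd68 and Itgam averaged 1320, 1072 and 1249 CPM with IFN-γ against 1513, 1788 and 1540 CPM. With IL-4 only Cd68, at 2126 CPM, averaged more than in controls. The mast cell and basophil markers, 11 genes of cells that also make prostaglandin D2 and leukotriene C4, summed to 0.102 to 1.68 CPM, and Tpsb2, Tpsab1, Mcpt4 and Cma1 were at 0 in all 15 libraries. Neutrophil markers, of another leukotriene source, summed to 2.39 to 51.9 CPM over all groups. Dendritic cell markers reached 23.9 to 59.8 CPM with IFN-γ against 0.525 to 1.54 CPM in controls. Clec9a (38.3 against 0.0396 CPM) and Xcr1 (7.02 against 0.0614 CPM) made up nearly all of it, while Zbtb46 had 0.351 against 0.442 CPM and Cd209a 0.0296 against 0.515 CPM. Stromal markers summed to 18.1 to 25.3 CPM at 400 µM and 21.4 to 29.99 CPM at 200 µM heme-albumin against 3.32 to 5.09 CPM in controls. Acta2 carried that difference, with means of 19.9, 22.0 and 2.35 CPM, while Cdh5 had 0.766, 0.889 and 1.15 CPM. The part of such cells in the values below was not tested. Heme-albumin 400 µM replicate 2 and IFN-γ replicate 3 stood apart from the others of their groups. Their chi-square per degree of freedom against the other 2 was 62.4 and 49.0 at 400 µM and 135 and 130.4 with IFN-γ, where those 2 differed from each other by 10.8 and 44.7. Values without both are given wherever a call changed. In bulk RNA, fewer cells of a type and less RNA per cell cannot be told apart. A gene is called higher or lower below at a Benjamini-Hochberg adjusted p under 0.05 in edgeR's quasi-likelihood test over all genes, and every adjusted p below comes from that test unless another tool is named. Log2 fold changes are given with their standard error (SE).

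**Figure D1:**
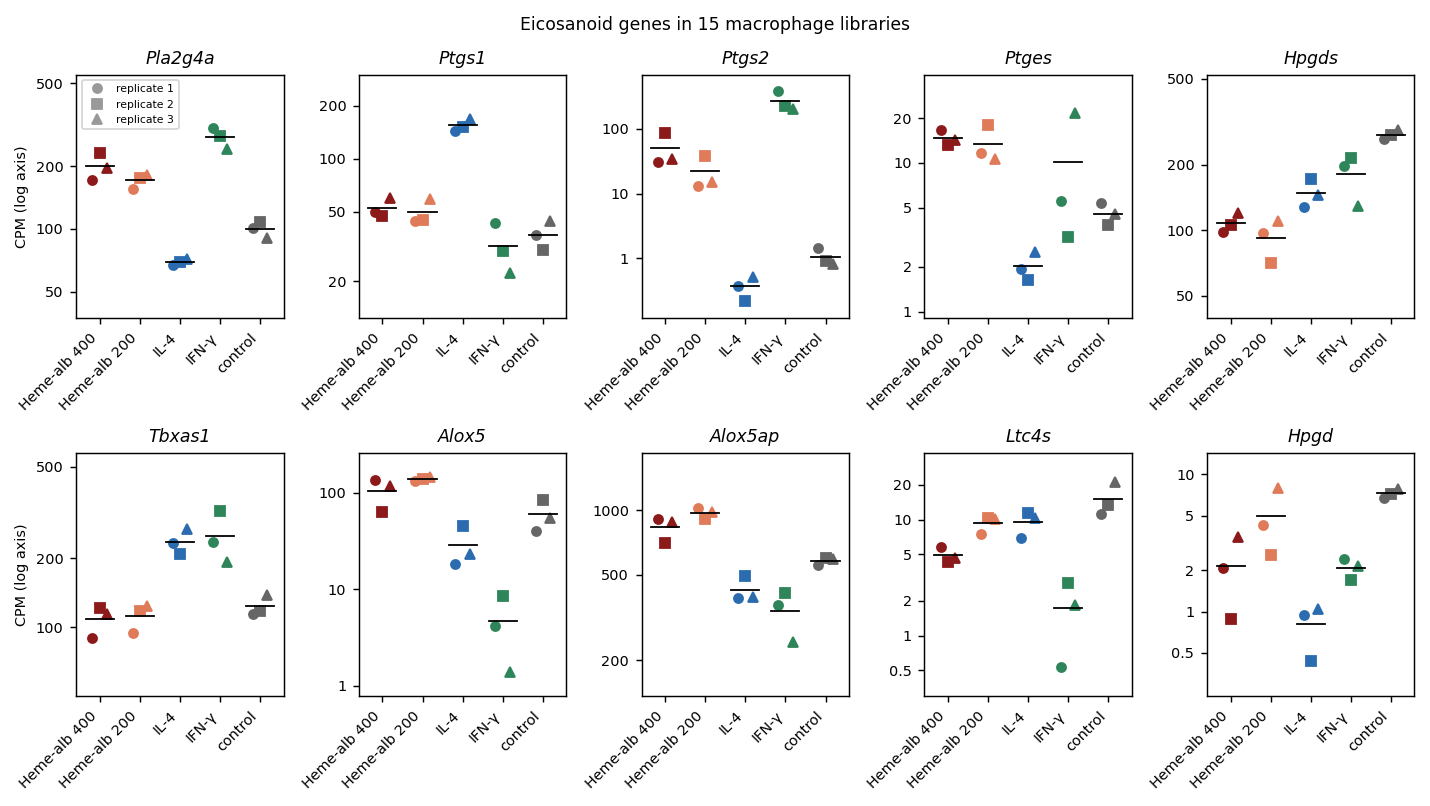
Level of each gene in CPM (log axis) in all 15 libraries, one panel a gene, with groups along the horizontal axis a symbol for each replicate number and a line at the group mean. Ptgs2 spans 717-fold between group means and Tbxas1 2.30-fold.

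Pla2g4a (ENSMUSG00000056220, chromosome 1, 149829618 to 149961290, minus strand, GRCm38), the phospholipase at the entry of the pathway, was higher with both doses of heme-albumin and with IFN-γ, and lower with IL-4. It had 172, 232 and 195 CPM at 400 µM heme-albumin, 155, 176 and 182 CPM at 200 µM, 67.4, 69.6 and 71.4 CPM with IL-4, 306, 281 and 241 CPM with IFN-γ, and 101, 108 and 90.5 CPM in controls. No treated group overlapped the controls. Over control, the log2 fold change was 1.20 ± 0.131 at 400 µM (SE, n = 3 each; adjusted p = 3.06e-05) and 0.98 ± 0.130 at 200 µM (adjusted p = 0.000136). It was 1.65 ± 0.132 with IFN-γ (adjusted p = 5.7e-07). With IL-4 it was -0.41 ± 0.129 (adjusted p = 0.0315), a call lost without control replicate 1 or 2 or without any 1 of the IL-4 replicates 1, 2 and 3 (adjusted p = 0.0704, 0.111, 0.0988, 0.0825 and 0.0538, within a range of 0.00276 to 0.111 over the alternatives).

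The cyclooxygenases divided between IL-4 and the other treatments. Ptgs2 (ENSMUSG00000032487, chromosome 1, 150100031 to 150108227, plus strand) was low in controls and with IL-4, and was much higher with heme-albumin and highest with IFN-γ. It had 30.8, 86.3 and 34.5 CPM at 400 µM heme-albumin (281, 783 and 455 counts) and 13.1, 38.6 and 15.2 CPM at 200 µM. With IL-4 it had 0.376, 0.218 and 0.525 CPM (6, 4 and 15 counts), with IFN-γ 380, 222 and 200 CPM, and in controls 1.43, 0.918 and 0.831 CPM (20, 14 and 7 counts). Every heme-albumin and IFN-γ library lay above every control, and every IL-4 library lay below. Ptgs2 differed from controls, on the log2 scale, by 5.75 ± 0.618 at 400 µM (adjusted p = 2.85e-05), 4.57 ± 0.617 at 200 µM (adjusted p = 0.000158) and 8.11 ± 0.644 with IFN-γ (adjusted p = 5.35e-07). It was -1.33 ± 0.908 with IL-4 (adjusted p = 0.312), a difference called in the fit of only the 6 libraries compared (adjusted p = 0.0246, range 0.0246 to 0.56).

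Replicate 2 was the highest library of both heme-albumin groups for Ptgs2, at 86.3 CPM against 30.8 and 34.5 CPM at 400 µM, and at 38.6 CPM against 13.1 and 15.2 CPM at 200 µM. Those 2 libraries share a date in the file's column headers. Without replicate 2 the log2 fold change over control was 5.07 at 400 µM (adjusted p = 4.5e-05) and 3.88 at 200 µM (adjusted p = 0.000416). In the other 3 groups replicate 2 was not the highest library.

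Ptgs1 (ENSMUSG00000047250, chromosome 2, 36230426 to 36252272, plus strand) was highest with IL-4. It had 49.8, 47.0 and 59.4 CPM at 400 µM heme-albumin, 44.3, 44.9 and 59.2 CPM at 200 µM, 144, 153 and 168 CPM with IL-4, 43.2, 29.8 and 22.3 CPM with IFN-γ, and 36.5, 30.3 and 44.0 CPM in controls. All IL-4 libraries stood above all others, both heme-albumin groups lay just above the controls, and IFN-γ overlapped them. On the log2 scale the difference from control was 2.19 ± 0.193 with IL-4 (adjusted p = 3.21e-06), 0.70 ± 0.189 at 400 µM (adjusted p = 0.0154) and 0.63 ± 0.189 at 200 µM (adjusted p = 0.0273). With IFN-γ it was -0.04 ± 0.188 (adjusted p = 0.881). The call at 400 µM was lost without control replicate 1 or 2 or 400 µM replicate 3 (adjusted p = 0.0546, 0.0779 and 0.0645, range 0.00489 to 0.0779). The call at 200 µM was lost without control replicate 1 or 2 or 200 µM replicate 2 or 3 (adjusted p = 0.0979, 0.128, 0.0533 and 0.112, range 0.00906 to 0.128).

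The promoter windows of both cyclooxygenase genes are shown because their levels moved so differently: 250 bases before to 50 after the RefSeq start on GRCm38.p6, at chr1:150099781-150100080 (plus strand) for Ptgs2 and chr2:36230176-36230475 (plus strand) for Ptgs1. Capitals mark matches to the motifs searched.
Ptgs2: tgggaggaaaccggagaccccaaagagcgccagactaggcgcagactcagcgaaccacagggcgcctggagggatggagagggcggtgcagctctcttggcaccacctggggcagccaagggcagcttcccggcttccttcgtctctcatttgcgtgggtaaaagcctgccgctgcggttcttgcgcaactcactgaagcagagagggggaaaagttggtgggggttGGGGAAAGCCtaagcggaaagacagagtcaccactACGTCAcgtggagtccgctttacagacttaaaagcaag
Ptgs1: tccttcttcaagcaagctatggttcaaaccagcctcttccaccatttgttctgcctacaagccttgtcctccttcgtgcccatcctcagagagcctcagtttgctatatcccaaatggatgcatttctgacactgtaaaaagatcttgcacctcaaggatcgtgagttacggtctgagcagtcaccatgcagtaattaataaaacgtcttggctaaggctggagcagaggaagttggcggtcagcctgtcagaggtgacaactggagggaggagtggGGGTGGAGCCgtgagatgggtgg
Each pattern was searched on both strands, and the share of 32851 promoter windows of the same length that hold it is given. They were the antioxidant response element core TGACNNNGC (12.4%), the STAT6-type pattern, TTC and GAA with 4 bases between (6.95%), the CRE core TGACGT (7.51%) and a loose NF-κB pattern, GGG and CC with 5 bases between (50.8%). The Ptgs2 window held TGACGT on its minus strand, read as ACGTCA from base 13 after the start, and GGGGAAAGCC from base -23. In the Ptgs1 window only GGGTGGAGCC matched, from base 28 after the start. No matches overlapped in any window, and a match is a run of letters, not a bound site.

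Per exon length, Ptgs2 made up a mean of 42.8% ± 15.7 of the summed RPKM of both cyclooxygenases at 400 µM heme-albumin (SD, n = 3, range 33.0 to 60.9%), 26.7% ± 13.4 at 200 µM (range 17.9 to 42.2%), 0.202% ± 0.0738 with IL-4, 87.6% ± 1.13 with IFN-γ and 2.43% ± 0.827 in controls. IFN-γ cells thus held mostly Ptgs2, IL-4 and control cells almost only Ptgs1, and heme-albumin cells both. The summed RPKM of both genes was 24.4 ± 5.86 at 400 µM, 17.6 ± 2.98 at 200 µM, 39.9 ± 3.13 with IL-4, 66.5 ± 24.2 with IFN-γ and 9.74 ± 1.76 in controls (SD, n = 3 each). All 4 treated groups lay above the controls in this sum. With 3 libraries against 3, the smallest exact permutation p is 0.1, so these shares and sums are given without a test.

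**Figure D2:**
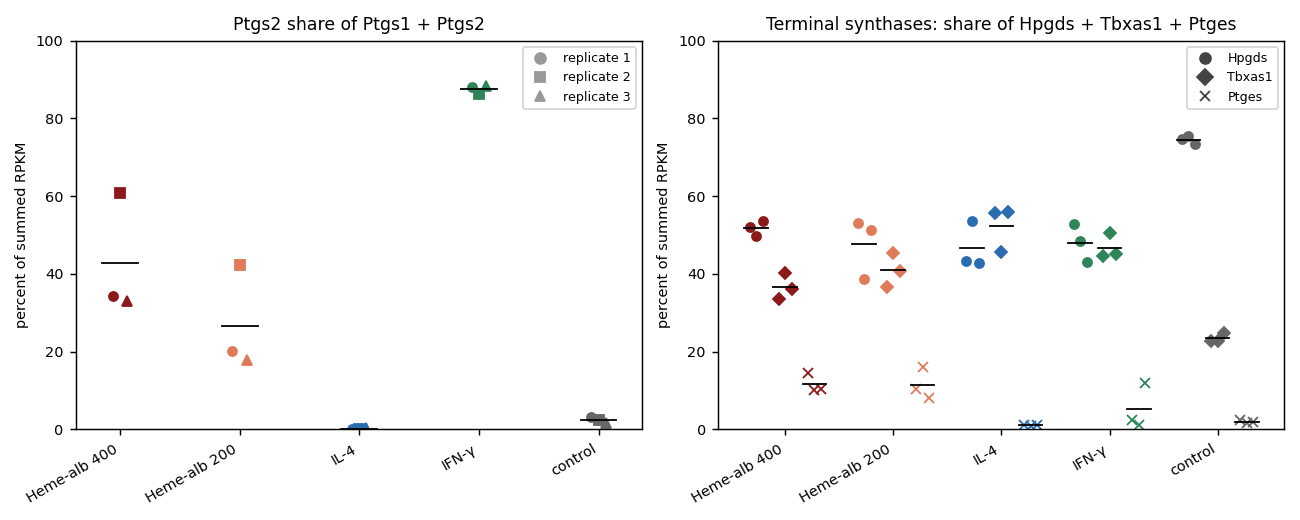
Left, Ptgs2 as a percent of the summed RPKM of Ptgs1 and Ptgs2, by group and replicate. Right, each terminal synthase as a percent of the summed RPKM of Hpgds, Tbxas1 and Ptges: Hpgds holds a mean of 74.5% in controls and less in every treated group.

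Among the terminal synthases, Ptges (ENSMUSG00000050737, chromosome 2, 30889471 to 30929863, minus strand), the inducible prostaglandin E synthase that works with Ptgs2, was higher with heme-albumin. It had 16.7, 13.1 and 14.3 CPM at 400 µM, 11.7, 18.0 and 10.6 CPM at 200 µM, 1.94, 1.63 and 2.52 CPM with IL-4, 5.57, 3.16 and 21.8 CPM with IFN-γ, and 5.38, 3.80 and 4.51 CPM in controls. Both heme-albumin groups lay above the controls and IL-4 below them, while IFN-γ had 1 library far above and 2 near the controls. Set against controls, the Ptges log2 fold change was 1.88 ± 0.573 at 400 µM (adjusted p = 0.0281) and 1.77 ± 0.571 at 200 µM (adjusted p = 0.0383). It was 1.40 ± 0.567 with IFN-γ (adjusted p = 0.0603) and -1.03 ± 0.607 with IL-4 (adjusted p = 0.241).

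The IFN-γ value of Ptges depended on a single library, and its heme-albumin calls lay close to the threshold. With IFN-γ the log2 fold change was 0.04 without IFN-γ replicate 3 (adjusted p = 0.923), and it was called without IFN-γ replicate 1 or 2 (adjusted p = 0.0263 and 0.00758) and by DESeq2 (adjusted p = 0.0242), with a range of 0.00758 to 0.928. The IL-4 difference was called without IFN-γ replicate 3, without both libraries that stood apart and in the fit of only the 6 libraries compared (adjusted p = 0.0134, 0.0139 and 0.00652, range 0.00652 to 0.424). With 1 library left out, the log2 fold change over control was 1.75 to 2.01 at 400 µM and 1.48 to 1.92 at 200 µM. At 400 µM the call was lost without any 1 control, numbered 1 to 3 (adjusted p = 0.0637, 0.0964 and 0.0788), or any 1 of the 400 µM replicates in the same order (adjusted p = 0.0575, 0.0561 and 0.0556, range 0.000118 to 0.0964). At 200 µM it was lost without any 1 control (adjusted p = 0.0905, 0.12 and 0.101) or any 1 of the 200 µM replicates (adjusted p = 0.0584, 0.144 and 0.0526), and at adjusted p = 0.0515, 0.0505 and 0.0516 without 400 µM replicate 3, IL-4 replicate 1 or IL-4 replicate 3 (range 0.000205 to 0.144).

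Hpgds (ENSMUSG00000029919, chromosome 6, 65117293 to 65144908, minus strand), the hematopoietic prostaglandin D synthase, was highest in controls. It had 98.4, 106 and 120.0 CPM at 400 µM heme-albumin, 96.7, 70.9 and 110.0 CPM at 200 µM, 128, 172 and 145 CPM with IL-4, 197, 216 and 129 CPM with IFN-γ, and 264, 275 and 290 CPM in controls. No treated library reached the lowest control. Over control, the log2 fold change was -1.15 ± 0.172 at 400 µM (adjusted p = 0.000317), -1.37 ± 0.173 at 200 µM (adjusted p = 9.15e-05) and -0.78 ± 0.170 with IL-4 (adjusted p = 0.00384). With IFN-γ it was -0.44 ± 0.169 (adjusted p = 0.0514), which became a call with DESeq2 size factors, with upper-quartile factors and in DESeq2 (adjusted p = 0.0419, 0.0227 and 0.0285). It also became one without 200 µM replicate 2 or 3 or IFN-γ replicate 2 (adjusted p = 0.035, 0.0456 and 0.0289, range over the alternatives 0.0227 to 0.18).

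Tbxas1 (ENSMUSG00000029925, chromosome 6, 38875404 to 39084585, plus strand), thromboxane A synthase, was higher with IL-4 and IFN-γ and not called with heme-albumin. It had 90.0, 121 and 114 CPM at 400 µM, 94.3, 118 and 124 CPM at 200 µM, 232, 208 and 267 CPM with IL-4, 236, 320 and 192 CPM with IFN-γ, and 114, 117 and 138 CPM in controls. Every IL-4 and IFN-γ library lay above every control, and the heme-albumin groups overlapped the controls. Tbxas1 differed from controls, on the log2 scale, by 1.05 ± 0.182 with IL-4 (adjusted p = 0.000758) and 1.19 ± 0.182 with IFN-γ (adjusted p = 0.00018). At 400 µM it was 0.02 ± 0.181 (adjusted p = 0.952) and at 200 µM 0.07 ± 0.181 (adjusted p = 0.805). Tbxas1 lies across Hipk2 on the opposite strand, with 0 exon bases in common. Exons of Ptgs1, Alox5ap, Ltc4s and Tbxas1 overlap those of predicted genes on the opposite strand by 148, 189, 268 and 144 bases, whose reads cannot be told apart with certainty.

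Per exon length, Hpgds made up 51.8% ± 1.9 of the summed RPKM of Hpgds, Tbxas1 and Ptges at 400 µM heme-albumin, 47.6% ± 7.84 at 200 µM, 46.6% ± 6.01 with IL-4, 48.1% ± 4.97 with IFN-γ and 74.5% ± 1.08 in controls (SD, n = 3 each). Tbxas1 averaged 36.6, 40.9, 52.4, 46.8 and 23.5% in the same order of groups, and Ptges 11.6, 11.5, 1.04, 5.16 and 2.02%. Every treated group thus held a smaller Hpgds share than the controls, with Ptges taking its largest mean share with heme-albumin and Tbxas1 with IL-4. With IFN-γ the Ptges share was 2.44, 1.15 and 11.9% in replicates 1, 2 and 3, so its mean rested on 1 library. The Tbxas1 share ran from 45.7 to 55.9% with IL-4 and from 44.7 to 50.5% with IFN-γ, and these ranges overlap.

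The windows of Ptges, at chr2:30903248-30903547 (minus strand), and Tbxas1, at chr6:38918736-38919035 (plus strand), are shown because they alone among the members' windows held the STAT6-type pattern, while the 2 genes lay on opposite sides of the controls with IL-4. The Ptges difference was not called (adjusted p = 0.241), and a link of the pattern to either change was not tested. Both RefSeq windows lie well inside the gene spans given above, not at their outer starts.
Ptges: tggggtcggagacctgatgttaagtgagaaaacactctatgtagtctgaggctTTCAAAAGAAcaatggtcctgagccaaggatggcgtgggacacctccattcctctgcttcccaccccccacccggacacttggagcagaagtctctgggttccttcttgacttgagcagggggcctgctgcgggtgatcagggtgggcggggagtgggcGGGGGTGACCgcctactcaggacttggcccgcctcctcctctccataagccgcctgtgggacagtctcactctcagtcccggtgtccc
Tbxas1: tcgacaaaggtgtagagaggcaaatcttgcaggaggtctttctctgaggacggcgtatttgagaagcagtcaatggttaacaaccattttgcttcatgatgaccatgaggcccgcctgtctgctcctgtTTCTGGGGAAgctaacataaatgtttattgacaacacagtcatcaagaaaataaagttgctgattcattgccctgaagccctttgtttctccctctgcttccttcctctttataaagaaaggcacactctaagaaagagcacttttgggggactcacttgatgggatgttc
TTCAAAAGAA began at base -197 and GGGGGTGACC at base -38 of Ptges, and TTCTGGGGAA at base -121 of Tbxas1.

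In the leukotriene branch, Alox5 (ENSMUSG00000025701, chromosome 6, 116410077 to 116461178, minus strand), 5-lipoxygenase, was higher with 200 µM heme-albumin and lower with IFN-γ. It had 134, 63.6 and 118 CPM at 400 µM, 132, 138 and 144 CPM at 200 µM, 18.3, 45.1 and 23.5 CPM with IL-4, 4.19, 8.54 and 1.40 CPM with IFN-γ, and 40.6, 84.3 and 54.6 CPM in controls. All 200 µM libraries lay above the controls and all IFN-γ libraries below, and the 400 µM and IL-4 groups overlapped the controls through their second replicates. Taken by replicate number, the CPM ratio to control was 0.449, 0.536 and 0.431 with IL-4, below 1 each time. At 400 µM it was 3.31, 0.75 and 2.16, on both sides of 1. On the log2 scale the difference from control was -3.47 ± 0.501 with IFN-γ (adjusted p = 0.000116) and 1.41 ± 0.443 at 200 µM (adjusted p = 0.0348). It was 0.99 ± 0.440 at 400 µM (adjusted p = 0.117) and -0.94 ± 0.443 with IL-4 (adjusted p = 0.139). Without IFN-γ replicate 2 the IFN-γ value was -4.23 (adjusted p = 7.3e-05).

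The weaker Alox5 calls moved with the libraries used. At 200 µM the call was lost without control replicate 1 or 3 or without any 1 of the 200 µM replicates 1, 2 and 3 (adjusted p = 0.143, 0.11, 0.0632, 0.0875 and 0.0775, range 0.00119 to 0.143). At 400 µM the difference was called without both libraries that stood apart, with a log2 fold change of 1.24 (adjusted p = 0.0187), without IFN-γ replicate 3 (adjusted p = 0.0458) and in the fit of only the 6 libraries compared (adjusted p = 0.0442, range 0.0187 to 0.309). With IL-4 it was called with only the 6 libraries or without both that stood apart (adjusted p = 0.0489 and 0.034, range up to 0.413). Of the platelet markers, Pf4 and Ppbp were ordered like Alox5: heme-albumin, then controls, IL-4 and IFN-γ. The 8 platelet markers summed to 365 to 630 CPM at 400 µM, 401 to 461 at 200 µM, 87.9 to 116 with IL-4, 13.2 to 36.7 with IFN-γ and 143 to 278 in controls. Nearly all of that was Pf4, with group means of 466, 421, 102, 26.7 and 218 CPM, and Gp9 was at 0 in all libraries. Ppbp averaged 12.7, 2.97, 0.348, 0.154 and 0.481 CPM in the same order of groups. Treml1 averaged 3.24, 2.44, 2.06, 1.31 and 2.44 CPM. Gp1bb, by contrast, averaged 0.124, 0.156, 0.551, 0.0602 and 1.04 CPM, and Itga2b 0.246, 0.127, 0.287, 0.351 and 0.0874 CPM. The part of such cells in the Alox5 values was not tested.

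Alox5ap (ENSMUSG00000060063, chromosome 5, 149264767 to 149288153, plus strand), which encodes FLAP, was the member of highest level per exon length in every group, with mean RPKM of 585 at 400 µM, 684 at 200 µM, 300 with IL-4, 238 with IFN-γ and 410 in controls. It had 910, 699 and 884 CPM at 400 µM heme-albumin, 1027, 906 and 978 CPM at 200 µM, 389, 492 and 396 CPM with IL-4, 360, 411 and 244 CPM with IFN-γ, and 555, 596 and 595 CPM in controls. The heme-albumin libraries all lay above the controls and the IL-4 and IFN-γ libraries all lay below. Set against controls, the Alox5ap log2 fold change was 0.71 ± 0.143 at 400 µM (adjusted p = 0.00276), 0.94 ± 0.143 at 200 µM (adjusted p = 0.00041) and -0.61 ± 0.143 with IFN-γ (adjusted p = 0.00405). With IL-4 it was -0.34 ± 0.142 (adjusted p = 0.0971), a difference called by DESeq2, with only the 6 libraries compared, without IFN-γ replicate 3 and without both libraries that stood apart (adjusted p = 0.0449, 0.0169, 0.0355 and 0.0151, range up to 0.273).

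Ltc4s (ENSMUSG00000020377, chromosome 11, 50236461 to 50238616, minus strand), leukotriene C4 synthase, averaged less than in controls with heme-albumin, where Alox5 and Alox5ap averaged more, and was called lower with IFN-γ, as those genes were. It had 5.82, 4.30 and 4.70 CPM at 400 µM heme-albumin, 7.47, 10.3 and 10.2 CPM at 200 µM, 6.96, 11.5 and 10.2 CPM with IL-4, 0.539, 2.85 and 1.83 CPM with IFN-γ (9, 64 and 30 counts), and 11.1, 13.2 and 20.9 CPM in controls. Controls were highest, and the 400 µM, 200 µM and IFN-γ libraries lay below all 3 of them, while 1 IL-4 library did not. Over control, the log2 fold change was -1.41 ± 0.393 at 400 µM (adjusted p = 0.0183) and -2.87 ± 0.415 with IFN-γ (adjusted p = 0.000115). It was -0.48 ± 0.373 at 200 µM (adjusted p = 0.378) and -0.53 ± 0.366 with IL-4 (adjusted p = 0.321). The 400 µM call was lost without control replicate 3 or 400 µM replicate 2 or 3 (adjusted p = 0.0809, 0.0594 and 0.0599, range 0.00212 to 0.0809).

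The window of Alox5, the member of widest span after Ptgs2, is at chr6:116461129-116461428 (minus strand).
Alox5: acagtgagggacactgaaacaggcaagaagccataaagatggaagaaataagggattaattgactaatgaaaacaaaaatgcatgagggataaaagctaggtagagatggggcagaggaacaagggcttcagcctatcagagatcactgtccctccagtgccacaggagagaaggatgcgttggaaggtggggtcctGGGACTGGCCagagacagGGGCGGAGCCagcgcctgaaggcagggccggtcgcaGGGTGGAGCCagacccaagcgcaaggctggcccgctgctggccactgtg
It held only the loose NF-κB pattern, from bases -53, -35 and 2. The windows of Pla2g4a, Hpgds, Hpgd and Ltc4s held none of these patterns. Sequences were found for 9 of the 10 members.

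Hpgd (ENSMUSG00000031613, chromosome 8, 56294585 to 56321043, plus strand), 15-hydroxyprostaglandin dehydrogenase, was a low gene that was highest in controls. It had 2.09, 0.882 and 3.49 CPM at 400 µM heme-albumin (19, 8 and 46 counts), 4.26, 2.60 and 7.94 CPM at 200 µM, 0.941, 0.435 and 1.05 CPM with IL-4 (15, 8 and 30 counts), 2.39, 1.69 and 2.13 CPM with IFN-γ, and 6.74, 7.21 and 7.83 CPM in controls. All libraries of the 400 µM, IL-4 and IFN-γ groups lay below the controls, and 1 of the 200 µM libraries lay above. Hpgd differed from controls, on the log2 scale, by -1.52 ± 0.442 at 400 µM (adjusted p = 0.0225), -3.01 ± 0.463 with IL-4 (adjusted p = 0.000317) and -1.62 ± 0.427 with IFN-γ (adjusted p = 0.00826). At 200 µM it was -0.37 ± 0.412 (adjusted p = 0.548). The 400 µM call was lost without control replicate 2 or 3, without 400 µM replicate 1 or 2 and without both libraries that stood apart (adjusted p = 0.0525, 0.0577, 0.0597, 0.0789 and 0.0577, range 0.00223 to 0.0789).

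**Figure D3:**
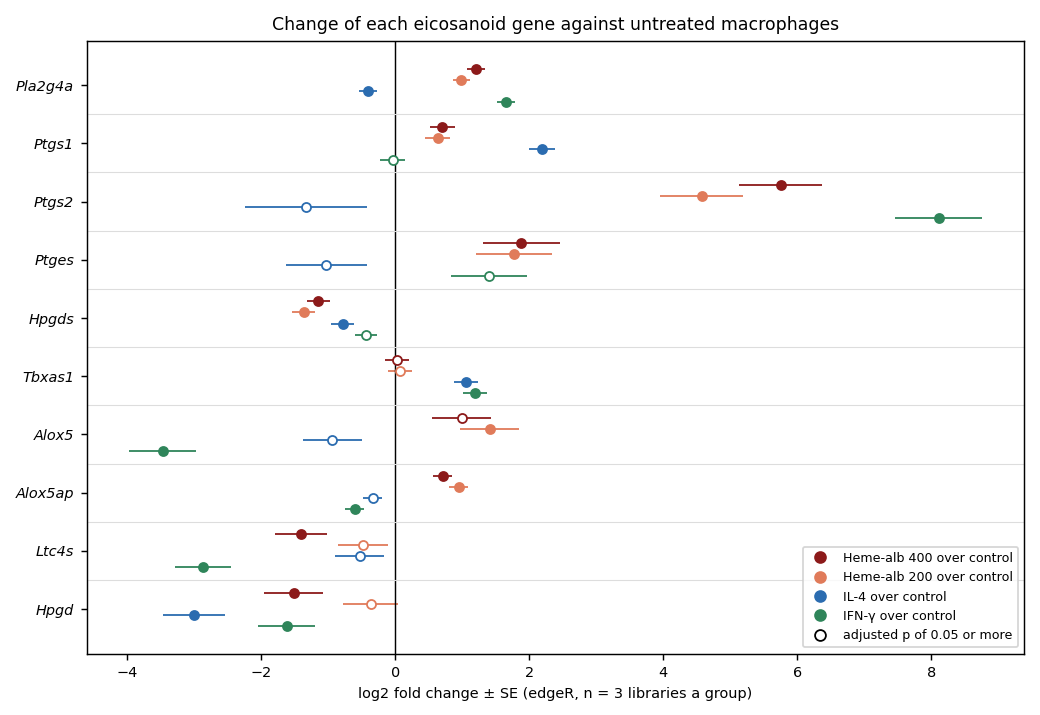
Log2 fold change of each gene over control (points) with its SE (bars), 3 libraries a group, for each of the 4 treatments; open points have an adjusted p of 0.05 or more. The genes at the top of the pathway lie to the right with heme-albumin. Hpgds, Ltc4s and Hpgd lie to the left with every treatment, some of them as open points.

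Counted over the 10 genes, 5 were higher and 3 lower at 400 µM heme-albumin than in controls, where 14.7% of all genes tested were higher and 10.8% lower. At 200 µM 6 were higher and 1 lower, against 14.0% and 9.48% of all genes. With IL-4 2 were higher and 3 lower (14.9% and 12.0% of all genes), and with IFN-γ 3 were higher and 4 lower (24.1% and 19.5% of all genes). The median log2 fold change of the 10 was 0.70, 0.79, -0.66 and -0.24 for 400 µM, 200 µM, IL-4 and IFN-γ over control, where the median of all genes was 0.01, 0.02, 0.00 and 0.05. These 4 comparisons share the same control libraries. Pla2g4a, Ptgs1, Ptgs2, Ptges and Alox5ap were called higher and Hpgds lower at both doses, and Alox5 at 200 µM only, with no call between the doses for any of them.

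Between 400 and 200 µM heme-albumin no member was called, and no gene of the 11883 was (0% of all genes) with edgeR. At an unadjusted p under 0.05 there were 1796 genes, 3 of them members, and DESeq2 called 13 genes and no member. Ptgs2 had a CPM at 400 µM over that at 200 µM of 2.35, 2.23 and 2.28 in replicates 1, 2 and 3. Its log2 fold change was 1.17 ± 0.451 (adjusted p = 0.297), and it was 0.50 without 400 µM replicate 2 (adjusted p = 0.93) and 1.87 without 200 µM replicate 2 (adjusted p = 0.31). Replicate 2 was the highest Ptgs2 library at both doses, and each of these 2 fits keeps it at only 1 dose. They therefore do not show whether the difference within dates rests on it. With a term for each replicate number in the model (the replicate block), 0 genes and 0 members were called. Hpgd had ratios of 0.490, 0.340 and 0.439 (log2 -1.15 ± 0.447, adjusted p = 0.298) and Ltc4s 0.779, 0.417 and 0.462 (log2 -0.93 ± 0.396, adjusted p = 0.307). Ptges and Alox5 had ratios on both sides of 1. In 3 pairs the smallest exact permutation p is 0.25.

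**Figure D4:**
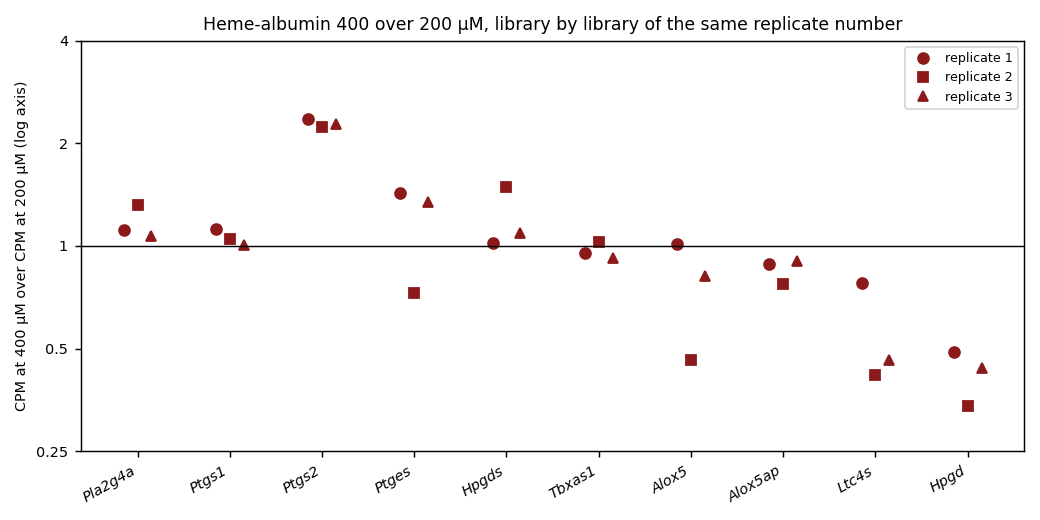
CPM at 400 µM heme-albumin over CPM at 200 µM (log axis) for each gene, between libraries with the same replicate number. The Ptgs2 ratios lie together above 2 and the Hpgd ratios below 0.5, and the others lie closer to 1 or spread.

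Heme-albumin at 400 µM was also set against each cytokine. Against IL-4, 6 members were higher and 2 lower (20.5% and 19.7% of all genes). Ptgs2 differed most, by 7.08 ± 0.664 on the log2 scale (adjusted p = 2.84e-06), or 6.40 without 400 µM replicate 2, followed by Ptges with 2.91 ± 0.594 (adjusted p = 0.00162). Alox5 was higher by 1.94 ± 0.452 (adjusted p = 0.00396), Pla2g4a by 1.61 ± 0.132 (adjusted p = 8.93e-07) and Alox5ap by 1.04 ± 0.144 (adjusted p = 7.65e-05). Hpgd was higher by 1.5 ± 0.490 (adjusted p = 0.026) although the groups overlapped, and this call was lost without 400 µM replicate 3, with a log2 value of 0.92, or IL-4 replicate 2 (adjusted p = 0.204 and 0.0942, range 0.00638 to 0.204). The lower genes were Ptgs1, at -1.49 ± 0.188 (adjusted p = 3.85e-05), and Tbxas1, at -1.03 ± 0.182 (adjusted p = 0.000565). Ltc4s, at -0.88 ± 0.390 (adjusted p = 0.0879), was called with only the 6 libraries compared or without IFN-γ replicate 1 (adjusted p = 0.0192 and 0.0185, range up to 0.219).

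Against IFN-γ, 4 members were higher and 4 lower at 400 µM heme-albumin (20.6% and 22.3% of all genes). All 3 genes of the leukotriene branch were higher: Alox5 by 4.47 ± 0.518 (adjusted p = 1.32e-05), or 5.22 without IFN-γ replicate 2, Alox5ap by 1.31 ± 0.144 (adjusted p = 8.31e-06) and Ltc4s by 1.47 ± 0.429 (adjusted p = 0.0138). Ptgs1 was higher by 0.74 ± 0.188 (adjusted p = 0.00625). Ptgs2 was lower, at -2.36 ± 0.452 (adjusted p = 0.000897), or -3.04 without 400 µM replicate 2, as were Tbxas1 at -1.17 ± 0.182 (adjusted p = 0.000171), Hpgds at -0.72 ± 0.171 (adjusted p = 0.00415) and Pla2g4a at -0.44 ± 0.128 (adjusted p = 0.0132). The Pla2g4a call was lost with upper-quartile factors, with only the 6 libraries or without 400 µM replicate 1 (adjusted p = 0.0773, 0.116 and 0.0546, range 0.00107 to 0.116), and the Ltc4s call with only the 6 libraries (adjusted p = 0.0849, range 0.00131 to 0.0849). Ptges, at 0.48 ± 0.535 (adjusted p = 0.495), was 1.84 without IFN-γ replicate 3 (adjusted p = 0.000196) and 1.89 without both libraries that stood apart (adjusted p = 0.000345, range up to 0.976).

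IL-4 and IFN-γ cells differed in 7 members, 3 higher and 4 lower with IL-4 than with IFN-γ (24.3% and 26.3% of all genes). Ptgs2 was lower by far, at -9.44 ± 0.688 on the log2 scale (adjusted p = 1.08e-07), with Ptges at -2.43 ± 0.587 (adjusted p = 0.00362; -1.07 and adjusted p = 0.00981 without IFN-γ replicate 3), Pla2g4a at -2.06 ± 0.133 (adjusted p = 3.3e-08) and Hpgd at -1.39 ± 0.473 (adjusted p = 0.025). The Hpgd call was lost without IL-4 replicate 2 or IFN-γ replicate 1 or 3 (adjusted p = 0.0948, 0.055 and 0.0551, range 0.00332 to 0.0948). Alox5 was higher by 2.53 ± 0.490 (adjusted p = 0.00075), or 3.29 without IFN-γ replicate 2, Ltc4s by 2.35 ± 0.409 (adjusted p = 0.000331) and Ptgs1 by 2.23 ± 0.192 (adjusted p = 5.98e-07). Hpgds, at -0.35 ± 0.169 (adjusted p = 0.103), became a call without IFN-γ replicate 3 or without both libraries that stood apart (adjusted p = 0.022 and 0.0188, range up to 0.334), and Alox5ap, at 0.27 ± 0.142 (adjusted p = 0.131), without IFN-γ replicate 2 (adjusted p = 0.0314, range up to 0.43).

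Genes with the most similar pattern were sought over the 15 libraries among 10822 genes, by the root mean square difference of log2(CPM + 0.5) after centring. The nearest to Ptgs2 were Slc6a19, a neutral amino acid transporter, Klra2 and Itgal, an integrin subunit, at differences of 0.915, 0.951 and 1.38, where Ptgs2 itself varied by 3.10 about its mean. For Alox5 they were Emp2, Pf4 and Col18a1, at 0.378, 0.695 and 0.697. Ptges lay nearest to Gsr, glutathione reductase, at 0.415, with group means for Gsr of 407, 393, 59.8, 150 and 99.7 CPM at 400 µM, 200 µM, IL-4, IFN-γ and control. Differences were smaller for Pla2g4a with Rabgap1l (0.157), Alox5ap with Tom1 (0.167), Hpgds with Mdk (0.208), Tbxas1 with Itpkb (0.211) and Ptgs1 with Abcd2 (0.294). Mdk was a low gene, with group means of 0.731 to 2.21 CPM, where the added 0.5 damps its changes. Ltc4s lay nearest to St6gal1 (0.443) and Hpgd to Eid1 (0.487).

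The rest of the pathway was read from lists of 51 enzymes, carriers and transporters, of which 38 passed the filter, and 19 receptors, of which 10 did. At 400 µM heme-albumin 16 of the 38 enzymes were higher and 6 lower than in controls (14.7% and 10.8% of all genes), and at 200 µM 16 were higher and 3 lower (14.0% and 9.48% of all genes). Their median log2 fold change was 0.235 at 400 µM, 0.33 at 200 µM, 0.17 with IL-4 and 0.09 with IFN-γ, to be read beside the medians of all genes above. The 16 at 400 µM include Alox15 (adjusted p = 0.0238), which averaged 0.582 CPM in controls and 2.37 CPM at 400 µM. It may have passed the filter only through the heme-albumin groups, and its call is not read further. The smallest p was that of Mgst2, a microsomal transferase that can also make leukotriene C4, which had 129, 161 and 136 CPM at 400 µM, 117, 177 and 131 CPM at 200 µM, and 1.86, 0.852 and 1.66 CPM in controls. Its log2 fold change was 6.83 ± 0.316 at 400 µM (adjusted p = 3.06e-08) and 6.84 ± 0.316 at 200 µM (adjusted p = 2.57e-08). IL-4 cells had 0.690, 0.218 and 0.525 CPM and IFN-γ cells 2.69, 2.67 and 3.54 CPM, so that every heme-albumin library held far more than any other.

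Also higher at 400 µM were Ptgr1, which inactivates leukotriene B4 and prostaglandins, by 2.97 ± 0.236 on the log2 scale (adjusted p = 2.41e-06), and Akr1b8, an aldo-keto reductase, by 2.46 ± 0.182 (adjusted p = 1.66e-06). Abcc1, an exporter of leukotriene C4, was higher by 1.92 ± 0.175 (adjusted p = 6.97e-06). At 200 µM the named enzymes beside Mgst2 were Ptgr1 at 2.61 ± 0.232 (adjusted p = 5.32e-06), Akr1b8 at 2.27 ± 0.181 (adjusted p = 2.93e-06) and Cbr3, a carbonyl reductase, at 2.19 ± 0.201 (adjusted p = 6.71e-06). Akr1b8 and the carbonyl reductases have close relatives in the genome, so reads may have been split among them.

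With IL-4 13 enzymes were higher and 6 lower than in controls (14.9% and 12.0% of all genes). Those of smallest p were Daglb, a lipase that releases 2-arachidonoylglycerol (1.41 ± 0.135, adjusted p = 6.22e-06; its exons overlap those of Rac1 on the other strand by 2309 bases), Pla2g6 (1.28 ± 0.15, adjusted p = 3.25e-05), Ephx1 (2.17 ± 0.256, adjusted p = 3.57e-05) and, on the lower side, Lpcat2, which returns fatty acids to lysophospholipids (-3.11 ± 0.372, adjusted p = 4.1e-05). Ephx1 was also called higher with heme-albumin, by 2.05 ± 0.256 at 400 µM (adjusted p = 7.82e-05) and 2.05 ± 0.255 at 200 µM (adjusted p = 8.46e-05). It was not called with IFN-γ (-0.267 ± 0.25, adjusted p = 0.407). Pla2g6 was called higher with every treatment, by 0.862 at 400 µM, 1.13 at 200 µM and 0.713 with IFN-γ. Daglb and Lpcat2 were called with IL-4 only. With IFN-γ 11 enzymes were higher and 8 lower, beside 24.1% and 19.5% of all genes, a share close to that background. Pla2g16, a phospholipase, was higher by 4.61 ± 0.223 (adjusted p = 5.37e-09), and Cbr2, a carbonyl reductase, was at -7.88 ± 0.796 (adjusted p = 5.3e-06). Cbr2 had 0.718, 1.24 and 0.488 CPM with IFN-γ against 202, 264 and 220 CPM in controls. Heme-albumin lowered Cbr2 too, at -5.54 ± 0.693 for 400 µM (adjusted p = 7.86e-05, mean 4.1 CPM). For 200 µM it was -3.56 ± 0.608 (adjusted p = 0.000957, mean 17.1 CPM). With IL-4 it was not called (0.157 ± 0.537, adjusted p = 0.866).

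Of the 10 receptors tested, 4 were higher and 1 lower at 400 µM heme-albumin than in controls. At 200 µM 5 were higher and 2 lower, IL-4 gave the same numbers, and IFN-γ left 6 higher and 0 lower. Over all genes, 14.7% were higher and 10.8% lower at 400 µM, 14.0% higher and 9.48% lower at 200 µM, 14.9% higher and 12.0% lower for IL-4, and 24.1% higher and 19.5% lower for IFN-γ. The median log2 fold change of the receptors was 0.89, 1.10, 0.855 and 2.46 for 400 µM, 200 µM, IL-4 and IFN-γ. Ptger2, a prostaglandin E2 receptor, had 36.6, 93.5 and 46.8 CPM at 400 µM, 31.2, 75.0 and 43.1 CPM at 200 µM, 36.4, 39.0 and 40.05 CPM with IL-4, 64.7, 69.3 and 71.8 CPM with IFN-γ, and 9.04, 9.11 and 6.17 CPM in controls. All 12 treated libraries stood above the controls, by 3.06 ± 0.390 on the log2 scale at 400 µM (adjusted p = 9.02e-05), 2.81 ± 0.387 at 200 µM (adjusted p = 0.000181), 2.34 ± 0.381 with IL-4 (adjusted p = 0.000498) and 3.26 ± 0.390 with IFN-γ (adjusted p = 2.39e-05). Ltb4r1, the high-affinity leukotriene B4 receptor, was a low gene that was likewise called higher in all 4, with 0.287, 0.393 and 0 CPM in controls and 1.77 to 6.40 CPM in the treated libraries. Its controls lay under the cut of the filter on low counts, so it was tested only because treated groups were high, and its calls are not read further. The receptor counts and medians include it and leave out the 9 receptors that failed the filter. Cysltr2, a receptor for cysteinyl leukotrienes, had 16.9, 16.1 and 19.9 CPM with IFN-γ against 1.58, 1.05 and 1.19 CPM in controls (log2 3.98 ± 0.248, adjusted p = 5.22e-08). It was lower at 200 µM (-1.63 ± 0.347, adjusted p = 0.00419), at 0.419, 0.315 and 0.306 CPM, which are few counts. At 400 µM it was not called (-0.852 ± 0.325, adjusted p = 0.0709). Pparg, a nuclear receptor for lipid ligands, was higher with IL-4 by 2.34 ± 0.236 (adjusted p = 9.43e-06). Fpr2, whose ligands include lipoxin A4, was lower with IL-4, at -6.35 ± 1.05 (adjusted p = 0.000545) and higher with IFN-γ by 4.43 ± 0.637 (adjusted p = 0.000112), with 134, 45.8 and 397 CPM in the IFN-γ libraries. Its IL-4 libraries had 0.188, 0.0544 and 0.105 CPM against 11.3, 10.6 and 9.97 CPM in controls, so the size of that fall rests on few counts. Without IFN-γ replicate 3 the Fpr2 IFN-γ log2 fold change was 3.19.

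**Figure D5:**
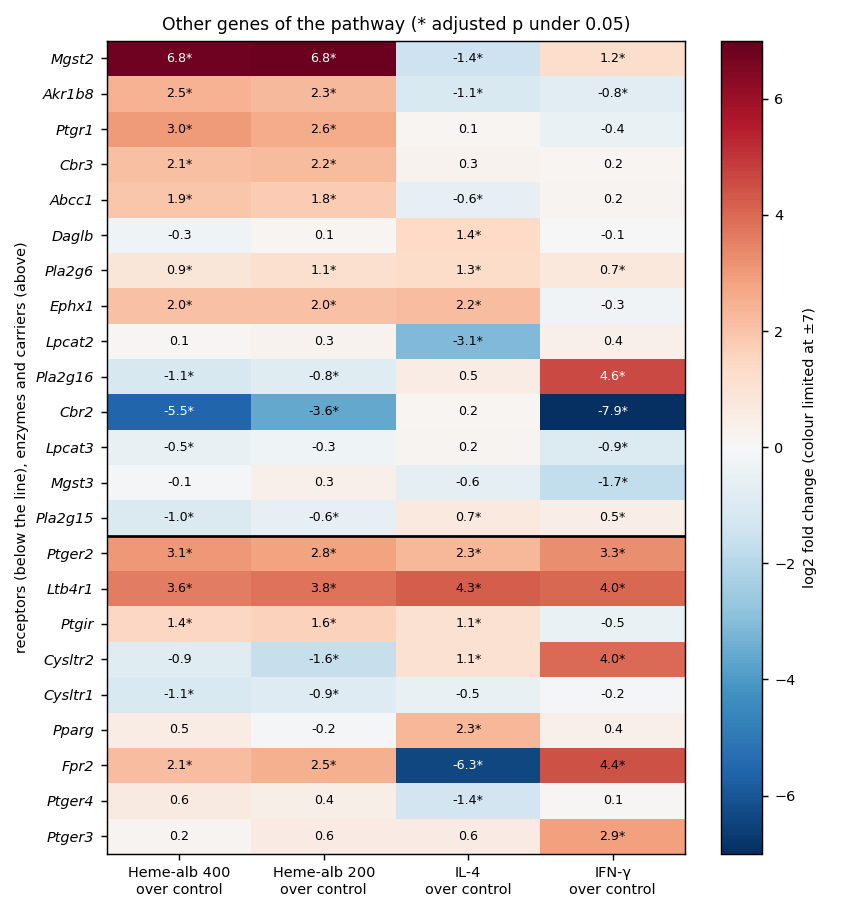
Log2 fold change over control of the other pathway genes named by the rule on smallest p, for each treatment; enzymes and carriers stand above the line and receptors below it, and a star marks an adjusted p under 0.05. Mgst2 is high in both heme-albumin columns, and Ptger2 is high in all 4. So is Ltb4r1, which passed the filter through the treated groups alone.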

How the data were processed

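The deposited values are raw read counts per gene, in 1 table of 15 columns. Stranded TruSeq libraries were made per the labels' protocols, and the submitters' processing notes name STAR 2.7.0e, SAMtools 1.9, featureCounts and, as build, GRCm38.p5. The counting's strand setting and annotation are not stated there, so overlapping and antisense genes cannot be told apart with certainty. Of 25700 identifiers, 25664 were matched to a symbol in GENCODE M21 (GRCm38), which also gave positions and exon lengths.

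The test was edgeR 4.0.16 (R 4.3.3) with filterByExpr, TMM scaling (factors 0.886 to 1.12) and 1 quasi-likelihood model over the 15 libraries, with Benjamini-Hochberg adjustment within each of 8 comparisons. CPM and RPKM were computed from the deposited counts. The exon length of a gene was that of all its annotated exons merged, such as 9094 bases for Tbxas1, 6425 for Hpgds and 3931 for Ptges. RPKM levels and shares between genes therefore depend on which exons are annotated. In counts simulated for 11883 genes after the comparison of 400 µM heme-albumin with control, it recovered 12 of 50 genes given a 1.5-fold change, 27 of 49 given 2-fold, 46 of 50 given 4-fold and all 50 given 8-fold, while 13 of its 148 calls were genes given no change. The real comparison called 1744 genes higher and 1279 lower, far more than were changed in the simulation. The adjustment was therefore stricter there, and recovery in the data may differ. The simulation used each gene's mean over all libraries and held no date effect.

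The members and lists were chosen with earlier results of these data known. In each comparison the text could name up to 4 called genes of smallest p from each of the other 2 pathway lists. Dpep2 has 2 identifiers, of which the first was used. The 23 alternatives were other scaling, filters, DESeq2 1.42.0, fewer libraries, a replicate block and leaving out each library. Same-numbered libraries of all groups share 1 of 3 dates in the column headers, which pairs them. The deviations from group means of 30 such pairs correlated at -0.168 to 0.474, over 0.1 in 19 of them, and 14 of the 15 libraries were closest to another of their own number. RefSeq promoter sequences are from GRCm38.p6, and a further motif is not reported here.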

Additional observations from a re-analysis of the deposited data

How the results depend on the processing

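Of 80 log2 fold changes (10 genes in 8 comparisons), 50 were called, and 38 of those stayed called under all 23 alternatives. Of the 30 not called, 11 were called under at least 1 alternative, and 8 of the 80 changed sign under at least 1. Calls that were lost or gained are given above beside each gene. The number of members called ranged from 4 to 7 at 200 µM heme-albumin over control and from 5 to 9 at 400 µM when 1 library was left out; it was 4 without control replicate 1 or 200 µM replicate 2 or 3, and 5 without control replicate 2 or 3 or 400 µM replicate 2 or 3. With IL-4 over control it was 9 with only the 6 libraries compared and 8 without both libraries that stood apart, against 5. Sign changes were confined to values not called. With 1 library left out, Tbxas1 over control ranged from -0.0115 to 0.19 at 200 µM and from -0.10 to 0.16 at 400 µM, and Ptgs1 with IFN-γ over control from -0.28 to 0.11. At 400 over 200 µM, Ptgs1 ranged from -0.0388 to 0.21, Ptges from -0.0371 to 0.40 and Tbxas1 from -0.18 to 0.0883. Hpgd at 400 µM over IFN-γ ranged from -0.48 to 0.44, and Tbxas1 with IL-4 over IFN-γ from -0.27 to 0.0495. Without both libraries that stood apart, Tbxas1 at 400 µM over control was -0.0888 and Ptgs1 with IFN-γ over control was 0.11. With the replicate block, Hpgd at 400 µM over IFN-γ was -0.0134, and no member's call changed. The causes of these changes were not tested. Low counts limit Hpgd, Ltc4s with IFN-γ, and Ptgs2 in IL-4 and control cells, and with 3 libraries a group a change of 2-fold or less could go uncalled. Larger changes went uncalled too. Over control, these included Ptgs2 with IL-4 (log2 -1.33, adjusted p = 0.312) and Ptges with IFN-γ (log2 1.40, adjusted p = 0.0603). Over control, Alox5 at 400 µM was not called at a log2 fold change of 0.99, while Ptgs1 at 200 µM was called at 0.63.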
